A study of Mus musculus with 26 samples.

Results

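RNA polymerase II (Pol II) on mouse liver genes was compared between 16 h after partial removal of the liver and the resected tissue, the 0 h sample. Genes were described where the Pol II signal per bp of the measured body, after rescaling between libraries, was above 0.5 at 0 h or at 16 h. This gave 4507 of 21133 measured genes, from 31804 entries in the files. Of the 4507, 2644 were above 0.5 at both times, 978 only at 0 h and 885 only at 16 h. The change of a gene is the log2 of its signal plus 0.5 at 16 h minus the same at 0 h, with signals below 0 set to 0. A change of 1 or more in either direction, a 2-fold difference on this scale, is called higher or lower, and a smaller one is given by its value.

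All mice were wild-type C57BL6/J males of 7 weeks that lost 3 of 5 liver lobes. For each time the livers of 5 mice were frozen, and the labels do not say whether they were pooled. Pol II was recovered with an antibody by chromatin immunoprecipitation and sequencing (ChIP-seq), which counts the DNA a protein sits on. There was 1 library per time, no operated control without resection, and no label for time of day or feeding. Hours after surgery and these conditions therefore cannot be told apart, and no difference has a replicate check, an error or a p-value.

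Pol II over the body of a gene marks its transcription at that moment, before the RNA accumulates or decays. After part of the liver is removed, the remaining hepatocytes leave rest, replicate their DNA and divide while the organ goes on making plasma proteins. Secreted proteins fold in the endoplasmic reticulum (ER), and a load of unfolded proteins there switches on genes for chaperones and degradation, the unfolded protein response. The acute phase is the shift of the liver towards plasma proteins of injury and inflammation.

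Of the 4507 genes, 764 were higher at 16 h (17.0%) and 861 were lower (19.1%), and the median change was -0.09. Changes of 2 or more were held by 150 genes upward (3.33%) and 160 downward (3.55%), and 36.3% of genes lay within 0.5 of 0. The rescaling factors of 16 h and 0 h differed by -0.32 on the log2 scale, and how far this moved a change depended on the level of the gene. Without rescaling 1264 genes were higher and 838 lower, so that 60.1% of the calls were upward in place of 47.0%. The 0 h library took part in every difference, and it was the highest of all 8 Pol II libraries in 1400 of the described genes (31.1%), which were chosen on 0 h and 16 h. That held for 723 of the 861 lower genes, a count that their choice largely fixes. The 0 h library exceeded every other by 1 or more in 314 described genes and lay below every other by as much in 124. These counts were 164 and 204 for the 3 h library, 32 and 5 for 16 h and 7 and 185 for 168 h, and the part of these libraries in single changes was not tested.

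**Figure D1:**
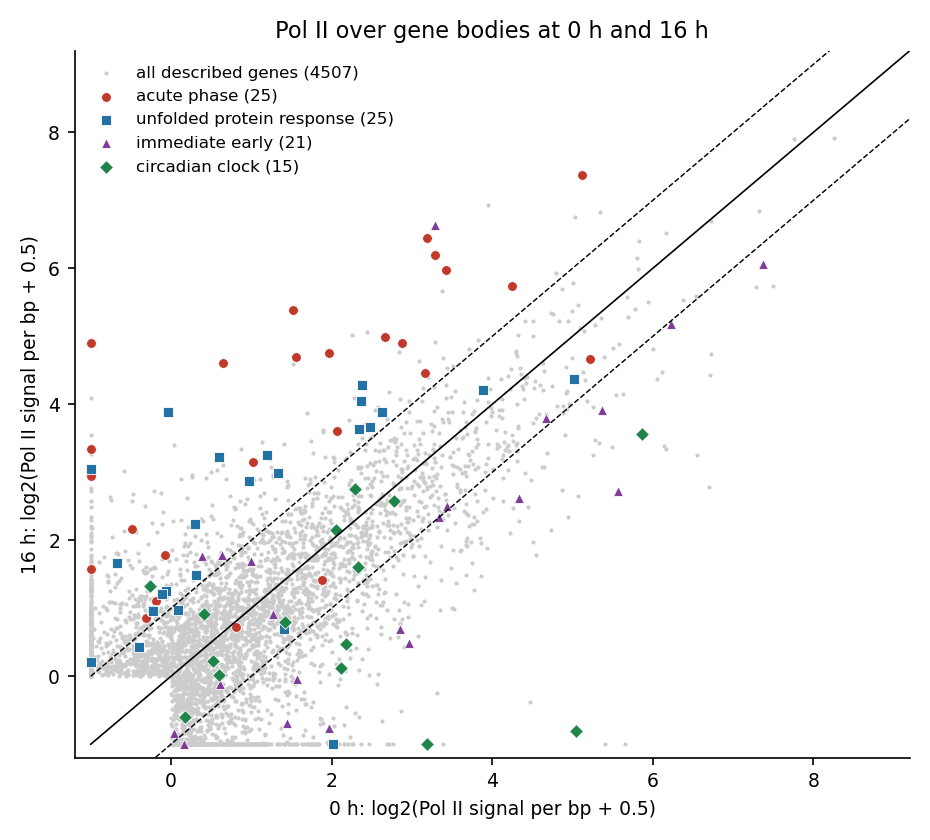
Pol II signal per bp of each described gene at 0 h (x axis) and 16 h (y axis), both as log2 of the signal plus 0.5, with 4 gene lists in colour. The solid line is equality and the dashed lines are a change of 1 either way. Acute phase and unfolded protein response genes lie mostly above the upper dashed line, and 11 of 21 immediate early genes lie below the lower one.

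The genes of the unfolded protein response and ER chaperones were mostly higher at 16 h. Of 25 described, 19 were higher and 1 was lower, with a median change of 1.30 beside -0.09 over all described genes. For 17 of the 25 the 16 h library was the highest of all 8, which held for 12.8% of described genes. It held for 258 of the 764 higher genes, since a call of higher at 16 h favours it. Among all genes that were higher, 10 held in their promoter the full ER stress response element, that is CCAAT, 9 bases of any kind and CCACG, to which ATF6 and the CCAAT-binding factor NF-Y are known to bind together. These sites are shown first, as a feature that the choice of genes did not use. Each line gives the match in capitals with up to 12 bases on either side, read 5′ to 3′ on the strand of the gene, from the RefSeq promoters of GRCm38.p6.

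Creld2, chr15:88819508-88819550, plus strand: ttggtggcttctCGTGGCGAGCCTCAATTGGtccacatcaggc
Alg12, chr15:88819508-88819550, minus strand: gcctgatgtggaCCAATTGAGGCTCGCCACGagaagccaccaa
Pdia6, chr12:17266479-17266521, plus strand: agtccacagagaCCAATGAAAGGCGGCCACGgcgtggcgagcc
Hsp90b1, chr10:86705626-86705668, minus strand: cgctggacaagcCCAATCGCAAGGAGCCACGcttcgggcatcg
Hsp90b1, chr10:86705521-86705563, minus strand: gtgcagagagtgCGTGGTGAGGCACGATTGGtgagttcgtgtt
Derl3, chr10:75893230-75893272, plus strand: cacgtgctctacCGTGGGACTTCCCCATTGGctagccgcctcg
Acnat2, chr4:49408205-49408247, minus strand: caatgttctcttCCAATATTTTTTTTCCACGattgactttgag
Hspa5, chr2:34772013-34772055, plus strand: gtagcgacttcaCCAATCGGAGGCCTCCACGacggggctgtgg
Syvn1, chr19:6046520-6046562, plus strand: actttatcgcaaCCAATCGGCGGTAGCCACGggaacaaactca
Calr, chr8:84847063-84847105, minus strand: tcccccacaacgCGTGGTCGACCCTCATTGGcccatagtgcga
Dnajc3, chr14:118937815-118937857, plus strand: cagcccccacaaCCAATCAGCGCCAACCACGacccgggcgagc

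The element was searched on both strands, so a match reads either CCAAT to CCACG or CGTGG to ATTGG. Creld2 and Alg12 are divergent neighbours, and their lines show the same bases from opposite strands: the match begins 126 bases before the start of Creld2 and 220 before that of Alg12. Acnat2, an acyltransferase, is in none of the ER lists. Hsp90b1 held 2 matches, beginning 212 and 107 bases before its start. The other matches began 156 (Derl3), 105 (Dnajc3), 98 (Pdia6), 84 (Acnat2), 65 (Hspa5), 44 (Syvn1) and 162 (Calr) bases before the start. A match in these windows, which run from 250 bases before the start to 50 after it, is a description and not a mapped binding site.

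A promoter was found for 3392 of the 4507 described genes, and 13 of them held the element (0.383%), as did 37 of the 27025 genes in the table (0.137%). Of those 13, 10 were higher at 16 h and none was lower, with a median change of 1.47. Of the described genes whose promoter lacked it, 16.7% were higher and 17.3% lower, with a median of -0.06. The remaining 3 were Hnrnpa3, Pan2 and Gpr44, with changes of 0.54, 0.00 and -0.55. The element was not held by all that moved: 16 unfolded protein response genes had a promoter in the table without a full match, and 10 of these were higher and 1 lower, with a median of 1.21. Creld2, Pdia6, Hsp90b1, Hspa5, Syvn1, Calr and Dnajc3 are in the unfolded protein response list, so these counts and those of the list share genes.

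Hspa5, the main chaperone of the ER, measured 4.65 signal units per bp at 0 h, then 10.96, 16.0 and 5.80 at 8, 16 and 24 h. The 16 h library was the highest, and its change against 0 h was 1.69. Creld2, an ER protein of the stress response, measured 0.48 at 0 h, then 9.15, 5.10, 14.4 and 0.51 at 3, 8, 16 and 24 h. Its change was 3.92, and by 24 h its signal was back at the 0 h level. Sdf2l1, which works with the Hspa5 chaperone, measured -1.45 at 0 h, then 1.53, 7.79 and -1.37 at 8, 16 and 24 h. Only the 3 h, 8 h, 16 h and 48 h libraries held a signal above 0 for Sdf2l1, and its change was 4.05.

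Hyou1, a large ER chaperone, measured 1.80 at 0 h, then 4.24, 9.01 and 2.38 at 8, 16 and 24 h, a change of 2.05. Armet, the gene now called Manf, encodes a secreted ER stress protein and measured 1.01 at 0 h, then 4.95, 8.81 and 4.22 at 8, 16 and 24 h, a change of 2.63. Pdia4, a disulfide isomerase, measured 0.73 at 0 h, then 1.81, 4.21 and 1.68 at 8, 16 and 24 h, a change of 1.94. In each of these 3 genes the 16 h library was the highest of the 8. Pdia6 and Pdia3, also disulfide isomerases, changed by 2.34 and 1.21, and Hsp90b1 and Calr, chaperones of secreted proteins, by 1.91 and 1.20.

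The transcription factors and some other genes of the response differed among themselves. Atf4, which also answers amino acid shortage, was 4.72 at 0 h and 19 at 16 h, but 28.3 at 24 h. Ddit3, which encodes the C/EBP relative CHOP, was 2.02 at 0 h and 7.45 at 16 h, its highest value, a change of 1.66. Its measured interval overlapped that of Mars by 1.12% of the shorter one. Xbp1, whose RNA is spliced during ER stress, went from 14.2 to 18.0, a change of 0.33, and was higher still in 4 libraries. Herpud1, a degradation factor, went from 32.0 to 20.2, a change of -0.65, and Dnajb9, a co-chaperone, from 2.16 to 1.12, a change of -0.72. Trib3, an inhibitor acting below CHOP, was the 1 gene of the list that was lower, with 3.56 at 0 h and -0.02 at 16 h. Its signal was below 0 in every library from 3 h to 48 h and 0.33 at 168 h.

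**Figure D2:**
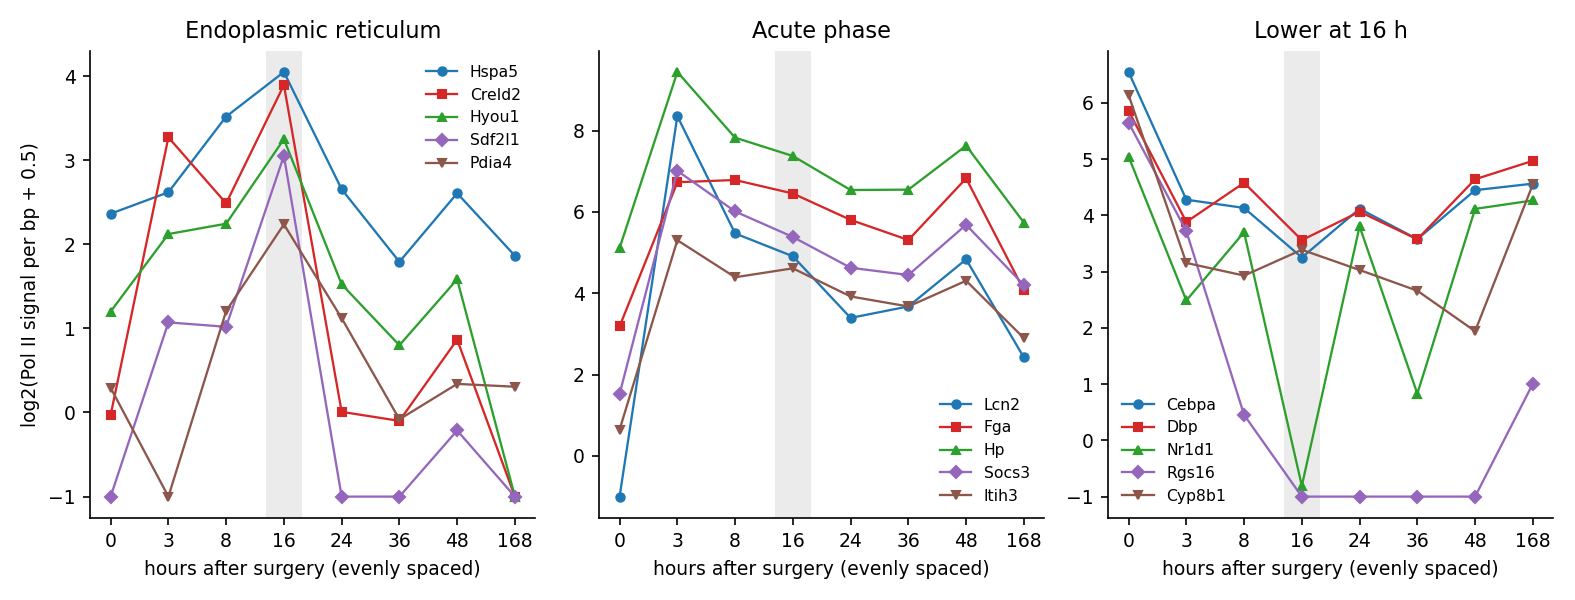
Pol II signal per bp, as log2 of the signal plus 0.5, of 5 genes of the ER, 5 acute phase genes and 5 genes that were lower at 16 h, in the 8 libraries at even spacing, with 16 h shaded. The 5 ER genes are highest at 16 h, the acute phase genes are all higher at 16 h than at 0 h, and Nr1d1 is lowest at 16 h.

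The rest of the secretory route was examined with 4 further lists, drawn up after the genes above had been seen. Of 14 translocon and signal peptidase genes 7 were higher and none lower, with a median change of 1.03. Of 23 genes of COPII and COPI transport vesicles and their cargo receptors 13 were higher and none lower, with a median of 1.22. Of 15 genes of ER-associated degradation 7 were higher and none lower (median 0.95), and of 14 of N-glycosylation 5 were higher and none lower (median 0.77). Over these and the unfolded protein response list, each gene counted 1 time, 47 of 85 genes were higher and 1 lower, with a median of 1.18. Over all described genes 17.0% were higher and 19.1% lower. The translocon, vesicle, degradation and N-glycosylation lists had 22, 35, 22 and 31 measured genes. Of these, 9, 8, 5 and 12 were at or below 0 at 0 h, and 1, 0, 1 and 7 at 16 h. Over all measured genes the medians were 0.84, 0.73, 0.66 and 0.33. The 4 medians stayed above that of all described genes under every alternative run, but the counts did not hold with a pseudocount of 2 in place of 0.5. Then none of the translocon and none of the vesicle genes was higher, 2 of the degradation and 1 of the N-glycosylation genes were, and the medians were 0.41, 0.59, 0.45 and 0.40. That setting left 4.15% of all described genes higher. Above a signal of 2, only 1 translocon gene was described.

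Slc35b1, a nucleotide transporter of the ER, changed the most among these genes, from -0.18 at 0 h to 3.44 at 16 h. Derl3, a channel component of ER-associated degradation, was 0.82 at 0 h, then 0.60, 4.38 and 1.03 at 8, 16 and 24 h. It stood alone at 16 h, while Derl1 and Derl2 changed by 0.60 and -0.10. Syvn1, the ubiquitin ligase of the same route, went from 5.69 to 14.2, its highest value, and its partner Sel1l from 0.42 to 1.81. Sec61a1, the channel through which new proteins enter the ER, went from 0.88 to 2.87. Ddost, a subunit of the enzyme that attaches sugar chains, went from 2.67 to 7.03, and Alg12, which builds those chains, from 0.23 to 1.54. Of the vesicle genes, Preb, which recruits the COPII coat, went from 3.54 to 8.84 and the cargo receptor Mcfd2 from 0.66 to 3.28. Sar1b, a GTPase of the same coat, went from 1.21 to 0.53, a change of -0.73, and the retrieval receptors Kdelr1 and Kdelr3 changed by -0.08 and -0.04.

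Acute phase genes gave the largest median of any list with more than 1 described gene. Of 25 described, 22 were higher and none lower, with a median change of 2.33. Over all 32 measured genes of the list, with values below 0 set to 0, the signal per bp summed to 159 at 0 h and 748 at 16 h. None of the 25 had its highest signal at 16 h, whereas 0 h was the lowest of the 8 libraries in 21, beside 15.5% of all described genes. A list called higher against 0 h favours such genes. As these genes are known targets of C/EBP factors, their promoters were searched for the C/EBP site TTGCNNAA on both strands. It was present in 12 of the 20 acute phase promoters found (60%), in 11.03% of described genes with a promoter and in 12.2% of the table. The matches below, in capitals, are from some of the genes described next and from 2 pairs of close copies.

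Lcn2, chr2:32387936-32387967, minus strand: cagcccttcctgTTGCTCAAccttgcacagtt
Saa1, chr7:46743143-46743174, minus strand: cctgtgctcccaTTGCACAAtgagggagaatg
Saa2, chr7:46751638-46751669, plus strand: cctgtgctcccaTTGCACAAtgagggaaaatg
Fga, chr3:83026006-83026037, plus strand: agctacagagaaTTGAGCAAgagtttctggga
Fgb, chr3:83049924-83049955, minus strand: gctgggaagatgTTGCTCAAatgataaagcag
Orm2, chr4:63362317-63362348, plus strand: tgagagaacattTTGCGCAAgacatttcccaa
Orm3, chr4:63356025-63356056, plus strand: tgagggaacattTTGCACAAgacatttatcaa

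The match began 216 bases before the start of Lcn2, 182 and 183 before those of Saa1 and Saa2, 135 before that of Fga and 80 before that of Fgb. In Orm2 and Orm3 it began 120 and 121 bases before the start. Saa4 held matches too, not shown, beginning 245 and 52 bases before its start. Orm2 was 0.45 at 0 h and 2.95 at 16 h, whereas Orm3 was 1.25 and 1.15. Close copies such as the Orm and Saa genes can share reads, and how the authors placed such reads is not stated in the sources used. Among all described genes with the C/EBP site, 17.9% were higher and 18.7% lower, near the 16.8% and 17.0% of those without it.

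Lcn2, an iron-sequestering protein of the innate defence, had the largest upward change of all, 5.91. It measured -1.26 at 0 h, then 326, 43.8, 29.5 and 10.01 at 3, 8, 16 and 24 h, so that 16 h lay far below 3 h. Saa1, a serum amyloid apolipoprotein, was -0.93 at 0 h, then 81.1, 9.66 and 5.25 at 8, 16 and 24 h, a change of 4.35. Saa2 was -0.36, 96.5, 7.20 and 2.10 at the same times. Both were far lower at 16 h than at 8 h. Saa4, the constitutive member of the family, went from 8.48 to 21.4 and differed little between 8 h (19.5) and 24 h (18.0).

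The fibrinogen genes, which encode the chains of the clotting protein, were closer between 8 h and 16 h. Fga was 8.59 at 0 h, then 110, 87.0 and 55.3 at 8, 16 and 24 h, a change of 3.27. Fgb was 10.2, 86.8, 62.7 and 44.0 at these times, and Fgg 9.28, 105, 72.5 and 47.3. Hp, the haemoglobin-binding haptoglobin, was 34.1 at 0 h, then 226, 165 and 92.4 at 8, 16 and 24 h. Itih3, an inter-alpha-trypsin inhibitor chain, was 1.07, 20.5, 24.0 and 14.6, and Lbp, the endotoxin-binding protein, 1.53, 5.34, 8.39 and 3.16. These last 2 were higher at 16 h than at 8 h. Socs3, the feedback brake on cytokine signalling, was 2.38 at 0 h, then 63.9, 41.2 and 24.2 at 8, 16 and 24 h. Hamp1, which encodes the iron hormone hepcidin, went from 36.8 to 24.8, a change of -0.56, and the receptor Il6ra from 3.17 to 2.17, a change of -0.46.

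Complement genes overlap in function with the acute phase. Of 16 described, 6 were higher and 1 lower, with a median change of 0.61, and with a pseudocount of 2 only 2 were higher. C3, the central component, was 9.90 at 0 h, then 58.0, 50.5 and 33.2 at 8, 16 and 24 h, a change of 2.29. Of 33 other plasma protein genes 3 were higher (9.09%) and 5 lower (15.2%), beside 17.0% and 19.1% of all described genes. The median of this list, -0.20, turned to 0.10 with no rescaling. Itih1, next to Itih3, was 0.86 at 0 h and 7.08 at 16 h, its highest value. Apoe, the lipoprotein ligand, went from 156 to 52.6, a change of -1.56, and all libraries after 0 h lay between 4.50 and 58.9. The 6 hepatocyte markers had changes from -0.33 to 0.58: Alb was 38.5 at 0 h and 35.5 at 16 h, and Apoa1 305 and 242.

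**Figure D3:**
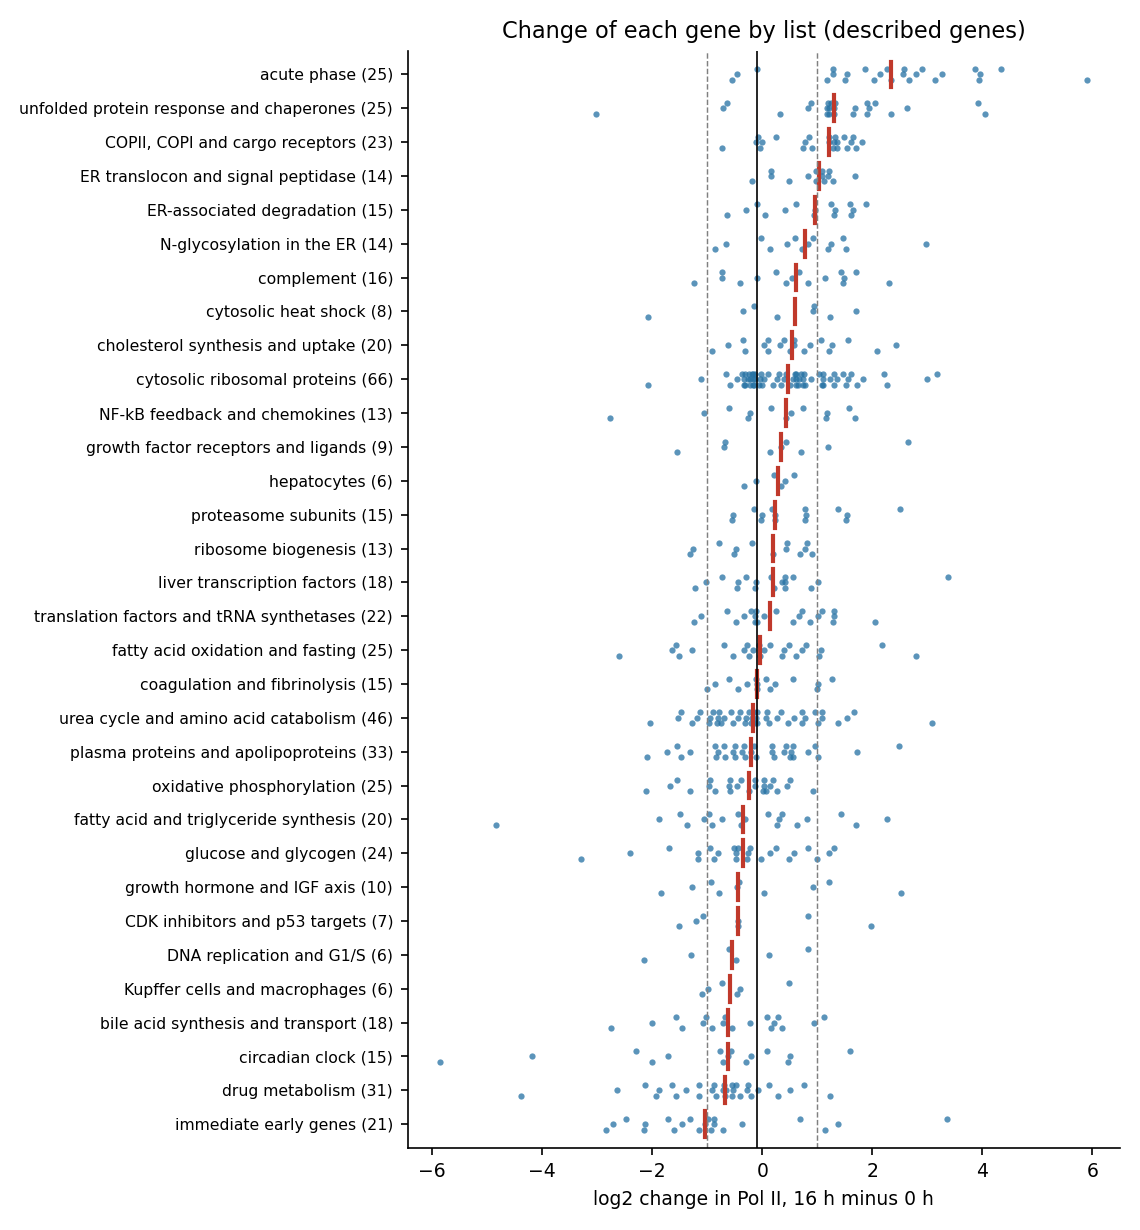
The log2 change of each described gene, 16 h minus 0 h, by list, for lists with 6 or more described genes (number in brackets). Each point is a gene, red bars are list medians, the black line is the median of all 4507 genes (-0.09) and dashed lines are changes of 1. The acute phase (2.33) and unfolded protein response (1.30) medians lie at the top, and the immediate early genes (-1.05) at the bottom.

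Several genes were high at 16 h alone. In 32 genes the 16 h signal exceeded each other library by 1 or more on the log2 scale. They included Sdf2l1, Hyou1, Pdia4, Derl3 and 3 other ER proteins: Tor2a and Tor3a, of the torsin family, and Ugcgl2, which checks the folding of glycoproteins. Hyou1, Derl3, Ugcgl2 and Pdia4 only just passed this limit, exceeding the next library by 1.0049, 1.0033, 1.0039 and 1.0307. For Sdf2l1, Tor2a and Tor3a this gap was 1.98, 1.31 and 1.16. Tor2a and Ugcgl2 were weak, with 0.88 and 0.64 at 16 h, near the 0.5 needed to be described, and under 0.5 in every other library. Bhmt, which remethylates homocysteine with betaine, was 2.36 at 0 h, then 1.85, 23.6 and 6.21 at 8, 16 and 24 h, a change of 3.08. An entry with a clone name overlapped Bhmt by 96.2% of the shorter interval, and the signal of the pair cannot be told apart. Cyp4a14, a fatty acid hydroxylase switched on in fasting, was 0.10 at 0 h, then -0.03, 3.64 and 0.64 at 8, 16 and 24 h.

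Fgf21, a hormone of the fasted liver, was below 0 in 7 libraries, down to -3.07 at 168 h, and 1.77 at 16 h. Its measured interval was only 1104 bp, and values below 0 counted as 0 in this comparison. Atf5, a stress-related transcription factor, was 0.52 at 0 h, then 3.89, 10.1 and 3.78 at 8, 16 and 24 h, a change of 3.37. Sox9, a transcription factor of bile duct cells and of hepatocytes in injury, was -1.13 at 0 h and 3.803 at 16 h, and between -2.50 and 0.21 elsewhere. The other defining bile duct markers were at or near 0 at 16 h: Spp1 measured -0.29 and Tacstd1, the gene now called Epcam, -0.29. Mvd, of the cholesterol pathway, was -0.04 at 0 h and 2.19 at 16 h, and Mad2l2, a DNA repair and checkpoint protein, 0.22 and 5.91.

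Lypla2, a thioesterase, had the second-largest upward change of the named genes, from -1.05 at 0 h to 11.2 at 16 h, with 3.58 at 8 h and 0.31 at 24 h. Lrfn3 went from -0.75 to 7.95 and Vasn from -0.18 to 6.08, both highest at 16 h. Pitx3 measured -0.45 at 0 h and 7.70 at 16 h, and its neighbour Elovl3, a fatty acid elongase of the liver, 0.91 and 7.55. The 2 intervals adjoin with an overlap of 0.18% of the shorter one. Ddx28, Tssk5, Wdr38 and Tmem30b complete the 15 largest upward changes, with 4.27, 3.99, 3.77 and 3.57, and each was higher still in 1 other library. Tmem30b was measured over only 561 bp, and its signal ranged from 6.24 at 3 h to -5.52 at 168 h.

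In cholesterol synthesis and uptake 6 of 20 genes were higher and none lower, with a median change of 0.54, and 7 of the 20 were highest at 16 h. With a pseudocount of 2 only 2 were higher. Fdps, which makes farnesyl diphosphate, was 1.73 at 0 h, then 5.52, 8.93 and 4.72 at 8, 16 and 24 h, a change of 2.08. Lss, which closes the sterol rings, went from 0.27 to 1.77. Insig1, the feedback sensor, was 14.6 at 0 h and 7.48 at 16 h, a change of -0.92. Of 12 promoters found for the list, none held the sterol element TCACNCCAC, present in 1.62% of described genes, and all 12 held CCAAT, present in 44.1%.

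Genes of protein synthesis showed smaller shifts. Of 66 cytosolic ribosomal protein genes 19 were higher and 2 lower, with a median of 0.47, and 0 h was the lowest library in 26. Among those above a signal of 2, 5 of 31 were higher and the median was 0.00, and with a pseudocount of 2 only 3 of the 66 were higher. Rps21 went from 0.00 to 4.04 and Rpl13a from 1.11 to 6.98, whereas Rplp1 went from 6.74 to 1.22. These genes are short and have many processed copies, so their values are uncertain. Of 22 translation factors and tRNA synthetases 6 were higher and 2 lower (median 0.14), of 15 proteasome subunits 4 were higher and none lower (median 0.24), and of 13 genes of ribosome biogenesis none was higher and 2 lower (median 0.20). Eef2, the elongation factor, went from 3.29 to 8.82 and Psma7, a proteasome core subunit, from 0.12 to 3.03.

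Few genes of the cell cycle were described. Of 42 replication and G1/S genes measured, 6 were above 0.5 at either time, none was higher and 2 were lower: Mcm10, from 2.89 to 0.27, and E2f1, from 0.72 to -0.14. Of 29 mitotic genes measured 2 were described. Aurka, a mitotic kinase, was 0.17 at 0 h and 1.27 at 16 h, and Cdc20 was 0.69 and 0.30. Cdkn1a, which encodes the cell cycle inhibitor p21, was 1.84 at 0 h, then 1.89, 8.66 and -0.12 at 8, 16 and 24 h. Its change was 1.97, over a measured interval of only 862 bp, while Cdkn1b, which encodes p27, went from 1.68 to 0.53.

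Immediate early genes were lower on the whole. Of 21 described, 11 were lower and 3 higher, with a median change of -1.05. Jun, a subunit of the factor AP-1, was 46.8 at 0 h and 6.09 at 16 h, and the AP-1 members Junb and Jund went from 74.6 to 35.9 and from 40.9 to 14.6. Egr1 went from 19.6 to 5.67, a change of -1.71, and Zfp36, which speeds RNA decay, from 166 to 66.2. The 0 h library was the highest of all 8 in 8 of the 21 (38.1%), near the 31.1% of all described genes. Gadd45g, a stress gene of growth arrest, went the other way, with a change of 3.36. It was 9.22 at 0 h, then 701, 173, 99.0 and 74.8 at 3, 8, 16 and 24 h. Its relatives Gadd45a and Gadd45b went from 6.72 to 1.12 and from 2.46 to 0.47.

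The largest downward changes were led by Rgs16, a regulator of G protein signalling, which was 49.7 at 0 h, then 12.7, 0.87 and -0.28 at 3, 8 and 16 h. Its change was -6.65, and the signal was also below 0 at 24, 36 and 48 h. Inmt, a methyltransferase, was 41.7 at 0 h, then 2.33, -0.41 and 4.80 at 8, 16 and 24 h, a change of -6.40. Car3, a carbonic anhydrase, went from 9.41 to 0.34 and Hes6, a transcriptional regulator, from 6.76 to 0.20. Fv1, Hcrt and Olfr460 were 6.31, 6.08 and 5.93 at 0 h and below 0 at 16 h. They have measured intervals of 879, 738 and 560 bp, and no later library was above 1.04 for any of them. Another of the 15 largest downward changes was an entry with a clone name, 788 bp wide and inside Nrxn2.

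Clock genes were next. Nr1d1, which encodes the repressor REV-ERB alpha, was 32.5 at 0 h, then 12.5, 0.07 and 13.5 at 8, 16 and 24 h, a change of -5.86, and 16 h was the lowest library. Dbp, a clock output factor, was 57.6, 23.4, 11.3 and 16.2 at these times, and Tef, its relative, 3.83, 1.84, 0.58 and 2.03. Upp2, a uridine phosphorylase under clock control, went from 8.60 to -0.33. Of 15 described clock genes 5 were lower (33.3%) and 1 higher (6.67%), with a median of -0.62. The 16 h library was the lowest in 6 of them, beside 195 of all 4507 described genes. Per1 and Per2, of the negative limb, changed by 0.46 and -0.72. The time of day of each sample is not given in the labels, and its part in these values cannot be told apart from that of surgery.

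Among the metabolic lists, those of drug metabolism and bile acids had the lowest medians, and several others held higher as well as lower genes. Cebpa, which encodes C/EBPalpha, was 93.2 at 0 h, then 17.0, 9.02 and 16.9 at 8, 16 and 24 h, a change of -3.30, and 16 h was the lowest library. Cebpb, which encodes C/EBPbeta, was 56.5, 66.2, 83.8 and 14.2 at these times, a change of 0.57. Its signal was far higher at 3 h (381), and 77.2 at 36 h. Of 31 drug metabolism genes 10 were lower and 1 higher, with a median of -0.67. Cyp1a2, a caffeine-oxidising cytochrome, went from 9.96 to -0.28, but its interval lies inside that given for Cyp1a1. Cyp2a5, a coumarin hydroxylase, went from 2.60 to -0.02 and Gstp1, a glutathione transferase, from 28.8 to 6.16. Cyp2e1 went from 47.4 to 29.2, a change of -0.69.

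Of 18 bile acid genes 6 were lower and 1 higher, with a median of -0.61. Cyp8b1, which sets the share of cholic acid, measured 70.1 at 0 h, then 7.12, 9.98 and 7.66 at 8, 16 and 24 h. Cyp7a1, whose enzyme limits the rate of bile acid synthesis, was 5.64, 6.77, 1.03 and 3.72, so it was low at 16 h between higher neighbours. Hsd3b7, an enzyme of the same pathway, went the other way, from 13.6 to 30.3. Of 24 genes of glucose and glycogen 5 were lower (20.8%, near the 19.1% of all described genes) and 2 higher (median -0.35). Pklr, the liver pyruvate kinase, went from 5.69 to 0.13, Gys2, the liver glycogen synthase, from 2.30 to 0.03, and Slc2a2, the glucose transporter, from 4.48 to 1.03.

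Among lipid genes Thrsp, a lipogenic protein, was 21.7 at 0 h, then 3.72, 0.27 and 3.58 at 8, 16 and 24 h, a change of -4.85. It was 1 of 5 genes that were lowest at 16 h by 1 or more, with Nr1d1, Ren1, Nudt7 and Sult1a1. Of 20 genes of fatty acid and triglyceride synthesis 5 were lower and 3 higher (median -0.35): Srebf1, their main activator, went from 12.9 to 4.24 and Insig2 from 0.52 to 4.37. Of 25 fatty acid oxidation and fasting genes 4 were higher and 5 lower. Their median of -0.05 turned to 0.34 with no rescaling. Fabp1, the liver fatty acid binding protein, went from 68.8 to 21.7 and Acaa1b, a peroxisomal thiolase, from 30.4 to 4.56. The urea cycle and amino acid list (46 genes, 7 higher, 6 lower, median -0.17), oxidative phosphorylation (25, none, 4, -0.23) and coagulation (15, 2, none, -0.09) also had medians above 0 with no rescaling.

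Among receptors and feedback genes, Fgfr4, the bile acid signal receptor, went from -0.06 to 2.62, its highest value, over an interval of 1282 bp. Erbb3, a growth factor receptor, went from 5.71 to 1.63, its lowest value. Of 13 NF-kB feedback and chemokine genes 4 were higher (30.8%) and 2 lower (15.4%), with a median of 0.43. Cish, a target of growth hormone, went from 3.78 to 1.27, its lowest value. Of 10 growth hormone and IGF genes 2 were higher and 2 lower.

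In whole liver, fewer cells of a type and less Pol II per cell cannot be told apart. Markers of other cells were mostly near 0 at both times. Of 13 Kupffer cell and macrophage markers 6 were described, none was higher and 1 lower. Over all 13, with values below 0 set to 0, the signal summed to 7.79 at 0 h and 4.74 at 16 h. Of 9 neutrophil markers 2 were described, with sums over all 9 of 7.82 and 3.04. Of 13 lymphocyte markers 2 were described, with sums over all 13 of 1.72 and 0.00. At 16 h, 8 of the 9 neutrophil and 13 of the 13 lymphocyte markers were at or below 0, beside 6 and 11 at 0 h. Of 14 endothelial markers 4 were described, with sums over all 14 of 13.8 and 25.9, of which Egfl7 gave 8.69 and 20.7. Egfl7 was the 1 of these that was higher. The part of cell types in the changes of the other lists, the acute phase included, was not tested.

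**Figure D4:**
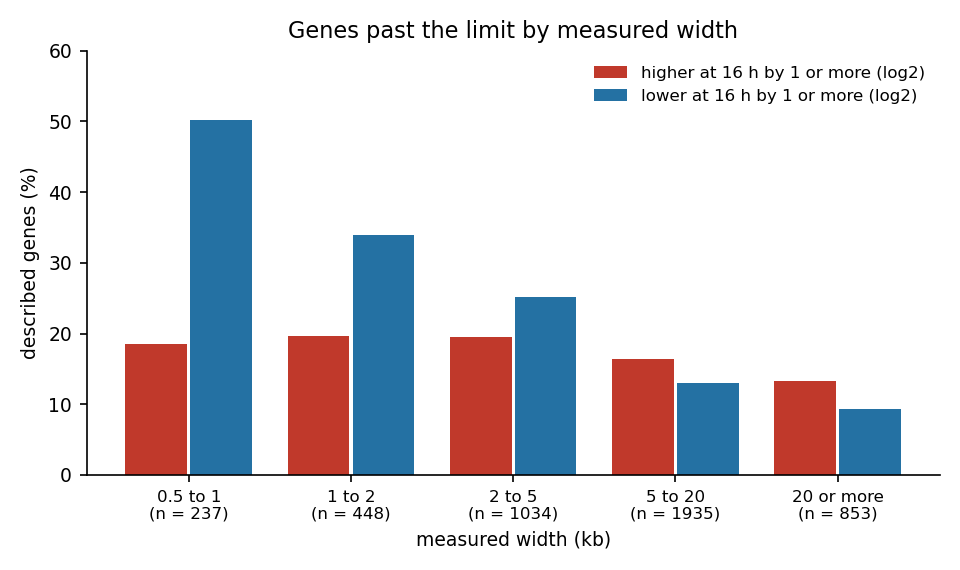
Percent of described genes that were higher (red) or lower (blue) at 16 h by 1 or more, by measured width. The lower share goes from 50.2% in the shortest class to 9.26% in the widest, and the higher share from 18.6% to 13.3%.

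Measured width went with the direction of change. Of 237 genes with intervals of 500 to 1000 bp, 119 were lower (50.2%) and 44 higher (18.6%), with a median change of -1.004. Of 853 genes of 20000 bp or more, 79 were lower (9.26%) and 113 higher (13.3%), with a median of 0.03. Over the 2855 described genes of at least 5000 bp, 422 were higher and 370 lower. The signal level made less difference: 16.3% were higher and 19.3% lower where the higher library was from 0.5 to 1, and 21.2% and 28.8% at 20 or above. Among the lower genes 100 bore clone names, against 33 of the higher. The part of short intervals in the lower calls was not tested.

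Some changed genes lay side by side. In 30 runs of at least 3 consecutive described genes, with gaps under 200 kb, all were higher, and in 19 runs all were lower. They covered 95 of the 764 higher and 63 of the 861 lower genes. How many such runs these numbers of genes would give without regard to position was not tested. The runs of higher genes included the fibrinogen genes on chromosome 3, the 3 Saa genes on chromosome 7, Itih4, Itih3 and Itih1 on chromosome 14, and Serpina3m, Serpina3k and Serpina3n on chromosome 12. They also included Psma7, Adrm1 and Rps21 on chromosome 2. Lower runs included Car11, Dbp and Sphk2 on chromosome 7, Cyp2a5, Cyp2a22 and Cyp2f2 on the same chromosome, and Hoxb5, Hoxb4, Hoxb2 and Hoxb1 on chromosome 11. Sphk2, a sphingosine kinase adjoining Dbp, went from 104 to 6.35. Overlapping or adjoining genes cannot be separated, since ChIP carries no strand, and 493 of the described genes (10.9%) overlapped another measured gene.

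**Figure D5:**
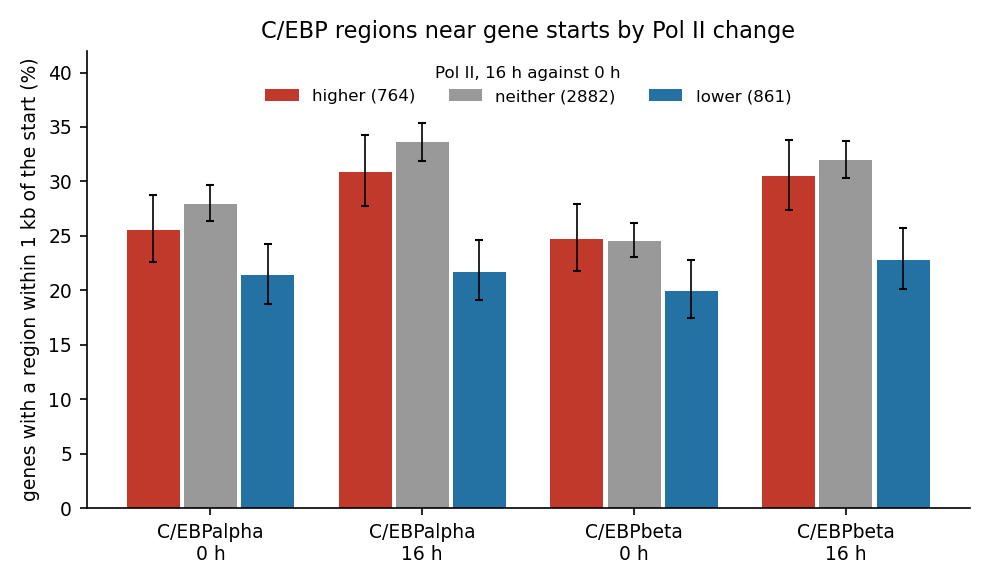
Percent of genes with a C/EBP region within 1 kb of the start, by factor and time, for genes higher, neither or lower in Pol II at 16 h. Error bars are 95% Wilson intervals over genes. At 16 h the lower genes have 21.7% for C/EBPalpha, below the 30.9% of the higher genes and the 33.6% of the rest.

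C/EBP regions, mapped in the same series, were compared with the Pol II change using the 28009 top-scoring regions of each list. At 16 h, a C/EBPalpha region lay within 1 kb of the start in 30.9% of the higher genes (95% Wilson interval 27.7% to 34.3%), and in 30.9% of all described genes. For the lower genes the share was 21.7% (19.1% to 24.6%). For C/EBPbeta at 16 h the shares were 30.5% of higher and 22.8% of lower genes, beside 30.0% of all. With the 0 h regions they were 25.5% and 21.4% for C/EBPalpha and 24.7% and 19.98% for C/EBPbeta, beside 26.3% and 23.7% of all described. These intervals cover counting over genes only, genes are not replicates, and the lower genes were also the narrower ones. Of the higher genes 160 had a C/EBPalpha region at both times, 76 only at 16 h and 35 only at 0 h. Of the lower genes these counts were 137, 50 and 47.

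The acute phase genes had C/EBP regions far more often than all described genes: at 16 h, 21 of 25 had a C/EBPalpha and 23 of 25 a C/EBPbeta region within 1 kb, and at 0 h 20 and 22. Their regions were thus mostly in the lists of the resting liver too. At 16 h coagulation genes had 10 and 12 of 15, and other plasma protein genes 20 and 19 of 33. Translation factors and tRNA synthetases had 15 and 15 of 22. In these lists 2, 3 and 6 genes were higher in Pol II. At Lcn2 the C/EBPalpha region nearest at 16 h was chr2:32243416-32243442 (mm9), 138 bp from the start, with an authors' score of 68, rank 2752 in its list. At Saa1 it was chr7:53998502-53998527, 164 bp from the start, with a score of 71, and at Cebpa chr7:35904095-35904121, 214 bp away, with a score of 116. Of the 25 unfolded protein response genes 15 had a C/EBPalpha region within 1 kb at 16 h. Creld2 and Sdf2l1 had none so near: their nearest lay 7626 and 7165 bp from the start, at chr15:88657691-88657715 and chr16:17125284-17125303.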

How the data were processed

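ChIP-seq of Pol II in mouse liver was analysed at 0 h and 16 h, with the other 6 Pol II libraries for rescaling and time courses and the C/EBP lists of both times. The submitters' processing notes list Bowtie 0.12.7, MACS 1.4.1 and mm9, without saying what each was used for. The deposited Pol II files give a signed signal per gene, which is not a count; its values look like a sum over the gene from some 500 bp downstream of the start with a background taken off. The scaling by the authors is not stated in the sources used, and depth is unknown. The C/EBP lists carry an authors' score, per the file headers of a difference or a sum. The IgG mock was not analysed here.

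The signal was divided by measured width, for entries of 500 bp or more with a unique name. Libraries were rescaled by the median ratio over 1472 genes above 0.5 in all 8 libraries, and 0.5 was added before the log2. Changes are relative to those genes, and those of low genes are understated. Of the entries 6603 ended before they started. With 1 library per time no test was made. Named genes were the 15 largest changes each way among genes of at least 2 signal units per bp in the higher library (predicted and RNA genes left out), up to 5 members of each list past 1, or up to 3 of the highest, and Cebpa, Cebpb and Egr1. Genes outside this rule, among them the ER, clock and single-time genes, were chosen after their values were seen. The members and lists were chosen with earlier results of these data known, and 4 lists on the ER were added after the named genes were seen. Gene starts were taken 500 bp before the measured interval. Promoters were matched by symbol to RefSeq, and 11 motifs were searched on both strands. The alternatives were other pseudocounts, scalings, filters, widths and region lists. Some genes that the naming rule covers are counted in their lists but not reported by name here. The calculation was tested on simulated data. Python 3.11.15, pandas 2.3.3, numpy 2.4.6, scipy 1.17.1 and matplotlib 3.10.9 were used.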

Additional observations from a re-analysis of the deposited data

How the results depend on the processing

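No paired analysis was possible because each time had 1 library. The main counts were 764 higher and 861 lower genes. With a pseudocount of 2 they were 187 and 220, and among genes above 2 in either library 314 and 366. With no rescaling 1264 were higher. Among genes of 5000 bp or more, a width chosen after seeing the data, 422 were higher and 370 lower. Within 10 kb in place of 1 kb, C/EBPalpha regions of 0 h lay near 61.8% of higher and 51.9% of lower genes, in place of 25.5% and 21.4%, and those of 16 h near 66.9% and 51.6%. For C/EBPbeta these were 59.95% and 51.7% at 0 h and 67.2% and 52.9% at 16 h. With the full 0 h C/EBPbeta list, 54574 regions long, the 1 kb shares were 34.2% and 29.0%. The other counts over all described genes stayed within 1.5 times and the other C/EBP shares inside their intervals, but counts within lists moved further. With a pseudocount of 2, the vesicle, translocon, ER-associated degradation, ribosomal protein, cholesterol and complement lists had 0, 0, 2, 3, 2 and 2 higher genes in place of 13, 7, 7, 19, 6 and 6. Of 141 named genes past 1, 90 stayed past it in the same direction under every alternative that gave a value, and none turned. The acute phase median ranged from 1.83 to 2.63 and that of the unfolded protein response from 1.01 to 1.80. Without replicates or depth, the counting error of a signal is unknown, and so is what level of signal is background in each library.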

Other observations

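Other sequence motifs were searched in the same promoters. The unfolded protein response element TGACGTGG was in none of the 23 promoters found for that list. In the added ER lists it was in 3 of 20 vesicle and 1 of 12 ER-associated degradation promoters. None of 9 translocon or 12 N-glycosylation promoters held it, beside 1.03% of described genes with a promoter. It was held by 35 described genes, of which 3 were higher (8.57%) and 5 lower (14.3%), beside 17.0% and 17.2% of those without it. The cAMP response element TGACGTCA was held by 107 described genes, of which 27 were higher (25.2%) and 14 lower (13.1%), beside 16.6% and 17.4% of those without it. The E-box CACGTG, which clock activators bind, was held by 411 genes, of which 14.8% were higher and 18.7% lower. The D-box TTATGNAA, bound by Dbp and its relatives, was held by 90 genes, of which 14.4% were higher and 13.3% lower. The STAT site TTCCNGGAA was held by 2 of 20 acute phase promoters and 1.53% of described genes. The shorter ER stress form of ATTGG, 1 base of any kind and CCACG was held by 7 described genes, of which 2 were higher and 2 lower. CCAAT alone, which lies within the full ER element, was held by 1497 genes, of which 17.6% were higher and 16.8% lower. CCAAT was present in 19 of the 23 unfolded protein response promoters found and in 4 of the 20 acute phase promoters.

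In genes just around the limits, 220 had a change from 0.9 to 1.1 and 252 from -1.1 to -0.9. The higher library was under 0.6 in 380 described genes, and between 0.4 and 0.5 in 478 genes that were left out.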
